A study of Homo sapiens with 36 samples.

Results

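Semaphorins, plexins, neuropilins, ephrins and EPH receptors are the cell-surface and secreted proteins through which neighbouring cells attract or repel each other. This is a description of where tagged hypoxia-inducible factors (HIFs) were found around their genes. Members were all protein-coding genes of the GENCODE annotation whose symbol starts with SEMA, PLXN, EPHA, EPHB, EFNA or EFNB followed by a digit or by a letter and a digit, together with NRP1 and NRP2. This gave 53 of 20033 protein-coding genes: 20 semaphorins, 9 plexins, 2 neuropilins, 9 EPHA and 5 EPHB receptors, 5 EFNA and 3 EFNB ephrins. A readthrough locus that joins EFNA4 and EFNA3 was not counted as a member of its own. The rule reads names and no binding value, but one member, PLXNA2, was picked by the study as an example on these same libraries. A peak was counted for a gene if its summit, the base with the most fragments, lay in the gene body or within 50 kb of it. This is a rule of distance and does not say which gene a site acts on.

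The libraries came from Cut&Run, in which an antibody brings a nuclease to the bound protein and the released DNA fragments are sequenced, in 786-O cells. These are an established clear cell renal cell carcinoma (ccRCC) line that lacks functional VHL, so HIF-2α is stable in all groups without hypoxia. A truncating mutation also leaves the line without functional HIF-1α, so no group had functional HIF-1α of its own. The 36 samples were 6 lines with 3 biological replicates each of an anti-V5 and an IgG library. WT cells carried no tag. The HIF-2α KIN line was 1 homozygous clone, A31, with V5 and Halo at the N-terminus of the endogenous protein. The other lines were WT cells that stably expressed 1 extra V5-Halo protein from the weak L30 promoter, and so kept their own untagged HIF-2α: full-length HIF-1α or HIF-2α, or one of 2 chimeras. HIF-2α/1α joined the N-terminal part of HIF-2α, with its DNA-binding and dimerization domains (called DBD here), to the C-terminal intrinsically disordered region (IDR) of HIF-1α, and HIF-1α/2α was the reverse. Expression of cell type markers was not analysed here, as the 36 samples measure binding.

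As background, semaphorins are ligands that signal through plexins. Most class 3 semaphorins are secreted and need a neuropilin as co-receptor, and the other vertebrate classes are bound to the membrane. EFNA ephrins are held to the membrane by a lipid anchor and EFNB ephrins span it. They bind EPH receptor tyrosine kinases on the next cell and signal in both directions. Both systems shape axon paths and blood vessels and are often altered in carcinomas. HIF-α subunits pair with HIF-1β and bind the hypoxia response element (HRE), whose core is ACGTG or GCGTG.

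The 15 lists of the tagged lines held 3984 to 20808 peaks and the 3 WT lists 392, 9508 and 743. In 6 of 6 lines the longest list was that of replicate 2. The mean background recovered from the lists was 0.241 to 0.593 fragments per base. Since a list grows with depth and signal, a gene without a peak was not called, which is not the same as unbound, and the part of list length in the shares below is given by lists cut to equal length.

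With full lists and a reach of 50 kb, 70.1% ± 14.8 of the guidance genes had a site per tagged library and 56.4% ± 14.9 of all protein-coding genes did (SD, n = 15). Of the 53 members, 19, 36 and 27 had a site in KIN replicates 1 to 3, and 28, 45 and 28 had one with HIF-2α. With HIF-2α/1α the numbers were 40, 43 and 40, with HIF-1α 40, 43 and 42, and with HIF-1α/2α 41, 44 and 41. WT cells gave 2, 29 and 6. The WT range thus reached into that of the KIN and HIF-2α lines, through WT replicate 2 alone. As shares, members with a site made up 51.6% ± 16.0 in KIN, 63.5% ± 18.5 with HIF-2α, 77.4% ± 3.27 with HIF-2α/1α, 78.6% ± 2.88 with HIF-1α and 79.2% ± 3.27 with HIF-1α/2α (SD, n = 3 each), against 23.3% ± 27.5 in WT. Of all protein-coding genes, 40.6%, 47.5%, 65.8%, 68.0% and 60.2% had a site in the same tagged lines and 17.6% in WT.

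**Figure D1:**
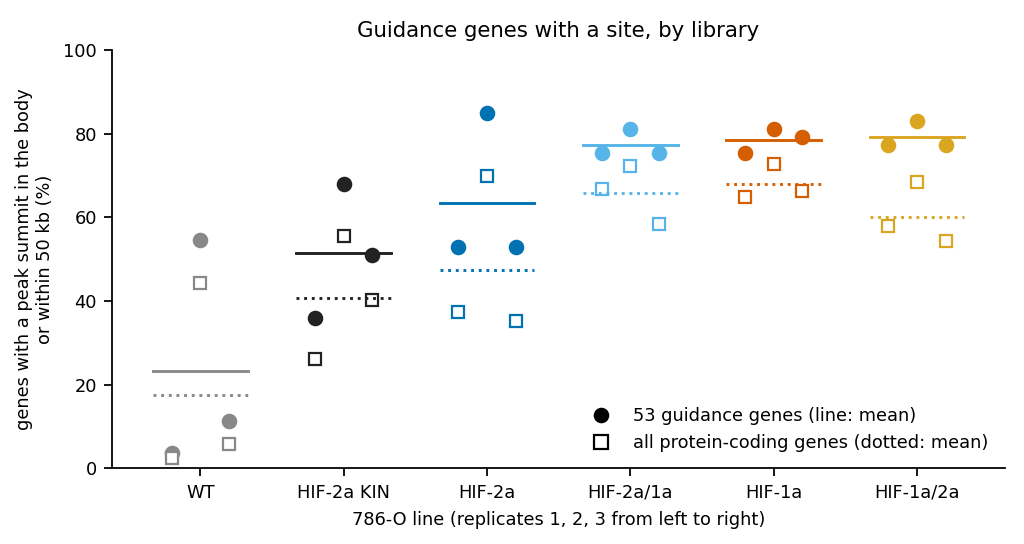
Share of genes with a peak summit in the body or within 50 kb (y axis, percent) in each anti-V5 library (x axis, by line and replicate). Filled circles are the 53 guidance genes, open squares all 20033 protein-coding genes, and solid and dotted lines their means over 3 libraries. The circle lies above the square in 18 of 18 libraries, WT included.

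The members lay above all genes in 18 of 18 libraries, by 1.36 to 23.0 percentage points. Members are longer than most genes, with a median length of 45.9 kb against 27.5 kb, and so have more room for a peak. Per megabase of gene body and flank, member peaks were still 1.28 to 1.85 times as dense as those of all genes in tagged libraries. The same ratio was 1.29 to 1.93 in the untagged WT libraries, but WT replicates 1 and 3 had only 3 and 8 member peaks. WT replicate 2, with 63 member peaks, was at 1.29, near the low end of the tagged range. A higher density at members was thus also seen without a tag, and its size in WT rests on few peaks. With each tagged list cut to its 3984 strongest peaks, the length of the shortest tagged list, the shares came to 37.1% ± 2.18 in KIN, 41.5% ± 3.27 with HIF-2α, 40.9% ± 1.09 with HIF-2α/1α, 46.5% ± 2.88 with HIF-1α and 42.8% ± 2.88 with HIF-1α/2α (SD, n = 3). Of all genes, 26.2%, 27.0%, 31.4%, 31.4% and 27.5% then had a site in the same lines. WT gave 15.1% of members and 10.9% of all genes, but WT replicates 1 and 3 hold only 392 and 743 peaks and stayed shorter. WT replicate 2, cut to 3984 peaks, gave 30.2% of members and 24.3% of all genes. The wide gap between KIN and the chimera lines therefore shrank with equal lists, to a few percentage points. HIF-1α stayed farthest from KIN, at 46.5% against 37.1%.

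The ephrin-A genes were the family with a site everywhere. All 5 EFNA members had a site in 15 of 15 tagged libraries, while in WT cells EFNA5 had one in 3 of 3 libraries, EFNA2 in 2 of 3 and the others in none. Of the 20 semaphorins, 12.3 ± 3.21 had a site in KIN, 14.0 ± 3.61 with HIF-2α, 16.7 ± 0.577 with HIF-2α/1α, 15.7 ± 1.15 with HIF-1α and 16.7 ± 1.15 with HIF-1α/2α (SD, n = 3), against 4.00 ± 6.08 in WT. Of the 9 plexins, the receptors of semaphorins, 4.67 ± 2.52 had a site in KIN and 6.00 to 6.67 on average in the exogenous lines. Both neuropilins had a site in every exogenous library. Of the 5 EPHB receptors, 1.33 ± 0.577 had a site in KIN and 4.67 ± 0.577 with HIF-1α, and of the 3 EFNB ephrins 0.667 ± 0.577 and 2.67 ± 0.577. In the EPHA receptors 2.00 ± 1.00 of 9 had a site in KIN and 5.67 ± 0.577 with HIF-1α, while single WT libraries gave 0 to 7. For the EPHA receptors the highest WT library therefore held as many members with a site as the highest tagged library, 7. These family counts come from full lists, of 3984 to 13193 peaks in KIN and 15058 to 20572 with HIF-1α. Of all protein-coding genes, 40.6% and 68.0% had a site in these 2 lines. Counts by family were not made with equal lists, so they do not show a difference between lines apart from list length.

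A site in all 15 tagged libraries was found for 14 members. These were the semaphorins SEMA4A, SEMA4B, SEMA4D, SEMA4G, SEMA5B, SEMA6A, SEMA6D and SEMA7A, the receptor EPHA2, and EFNA1 to EFNA5. EFNA1, EFNA3 and EFNA4 are neighbours that share regions. The same share over all protein-coding genes was not counted, and members have the longer reach. The number is thus a list of genes and does not show an excess. At the other end, 7 members had isolated peaks only, in 1 or 2 tagged libraries and never at the same place in a pair of libraries: EPHA3, EPHA7, EPHA8, PLXNC1, PLXND1, SEMA3D and SEMA3E. No plexin, neuropilin, EPHB or EFNB gene had a site in all 15. NRP1, NRP2, PLXNA3, PLXNA4, PLXNB2, PLXNB3 and EPHB1 had one in 14 of 15, and the EFNB ligands in 2 to 12.

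**Figure D2:**
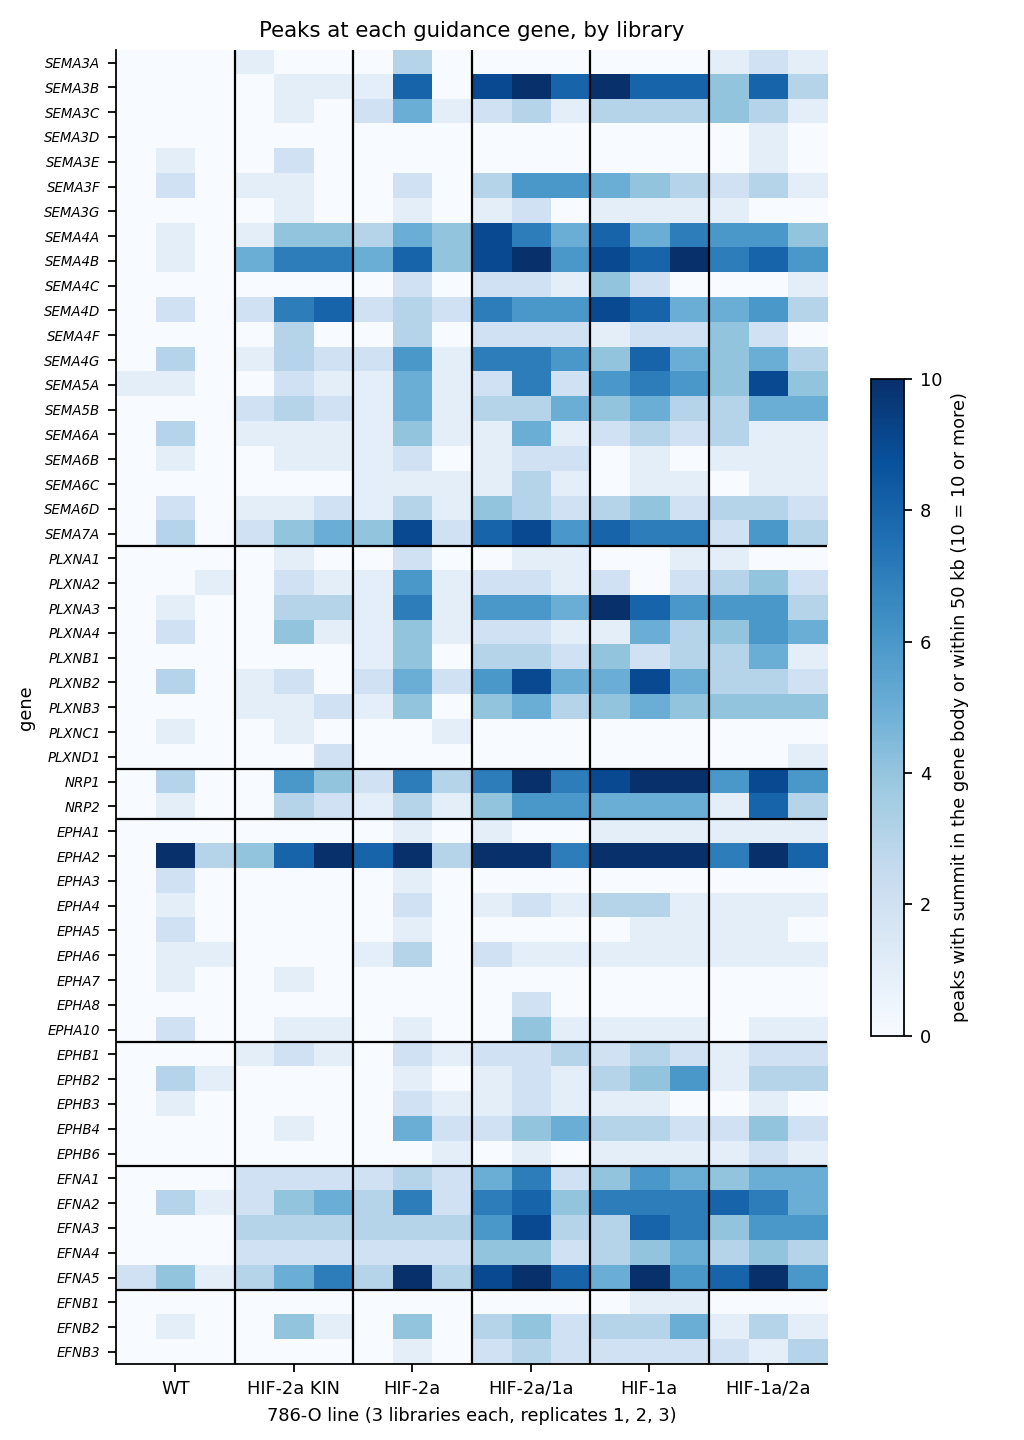
Number of peaks at each of the 53 guidance genes (rows, grouped by family) in each of the 18 anti-V5 libraries (columns, by line, replicates 1 to 3 in order). Darker squares hold more peaks, with 10 standing for 10 or more. The 5 EFNA rows are filled in all 15 tagged columns, while EPHA3, EPHA7 and SEMA3D have peaks in 1 tagged library each.

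To compare sites between lines, overlapping peaks of the 18 lists were merged, and the 25783 regions that 2 or more libraries supported were kept. Of these, 248 lay at members and 13 of the 248 were within reach of more than 1 member. EPHA2 had 18 regions, SEMA3B 14, NRP1 13, EFNA5 and SEMA7A 12 each, and SEMA4B and PLXNB2 11 each. By position, 75 regions (30.2%) were intronic, 29 (11.7%) lay within 1 kb of a start site of their member, 3 fell in untranslated exon, 74 (29.8%) lay upstream and 67 (27.0%) downstream. A member held the nearest start site for 144 regions (58.1%), and in 104 another gene's was closer. In 56 of these the summit was within 1 kb of that other gene's start. So 22.6% of the regions counted for guidance genes sat at a promoter of a neighbour.

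The member regions were close to the rest in motif share and rank. An HRE core (ACGTG or GCGTG, either strand) was found within 50 bp of the summit in 62 of 248 regions (25.0%), and in 24.5% of all 25783. The AP-1 core (TGACTCA or TGAGTCA) was found in 7.66% and 8.32%. Ranked by the deposited −log10 p within each list, member peaks had a median percentile of 49.0 ± 4.92 over the 15 tagged lists, where 50 is the middle of a list, and 1.71% ± 0.726 of them were in the top 1% (SD, n = 15). A region was called by a median of 6 tagged libraries at members and 5 overall.

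**Figure D3:**
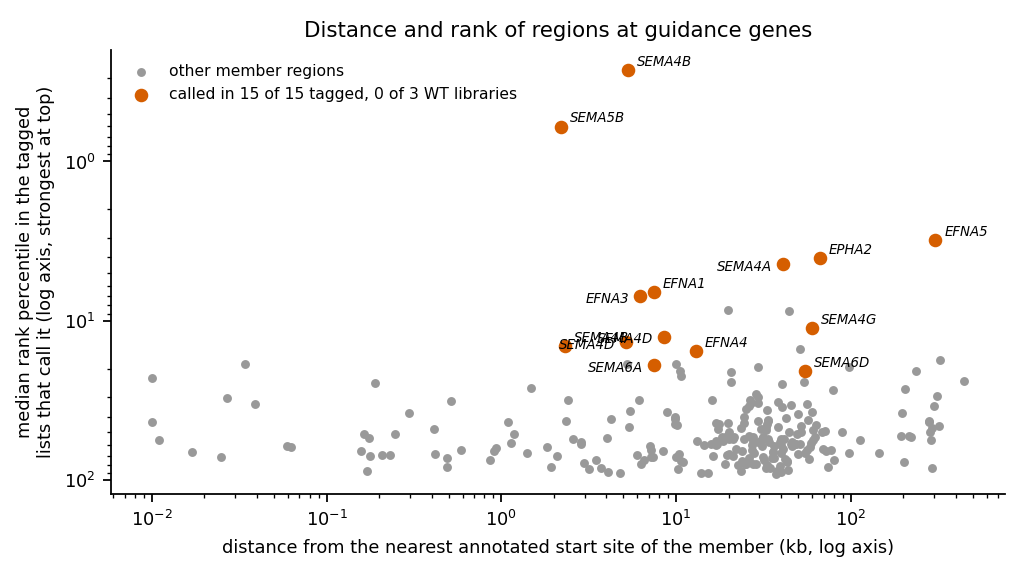
Each point is a region at a guidance gene. The x axis gives the distance of its summit from the nearest annotated start site of the member (kb, log axis, distances under 0.01 kb drawn at 0.01) and the y axis its median rank percentile in the tagged lists that call it (log axis, strongest at the top). The 14 large points are regions present in all 15 tagged lists and absent from all 3 WT lists, and the SEMA4B and SEMA5B introns stand highest at 0.268 and 0.607.

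In all, 14 regions separated tagged from WT libraries. Each of the 14 was present in all 15 tagged lists and absent from all 3 WT lists, the one pattern that passed Fisher's exact test (two-sided, adjusted p = 0.0263 by Benjamini-Hochberg over all regions). That is 5.65% of the 248 member regions, beside 4.66% of all regions. In genes, 12 of 53 members (22.6%) had such a region in reach, beside 10.8% of all protein-coding genes, and the members have the longer reach. The region-level share was close to the background. The test needs all 3 WT libraries: without any 1 of them the smallest exact p was 0.00735 (adjusted p 0.118 to 0.156), and no region was called. With the replicate number as a block, no region was called either, at members or genome-wide (stratified exact test, smallest p = 0.00463, adjusted p = 0.0994). The 14 stood at 7 semaphorins, at EPHA2 and at 4 ephrins, 6 of them in introns of the member, 3 upstream and 5 downstream, and none at a member's own promoter. Of the 14, 6 (42.9%) held an HRE core within 50 bp of the summit, as did 34.5% of the 1201 regions with this pattern genome-wide.

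The 2 strongest sites of the group were introns of semaphorins, and their sequences are shown because they ranked among the first 109 peaks of every tagged list. They are 101 bases of hg38 centred on the summit, plus strand, with any HRE core in capitals (CACGC and CACGT are the core read on the other strand).
SEMA4B, chr15:90165883-90165983: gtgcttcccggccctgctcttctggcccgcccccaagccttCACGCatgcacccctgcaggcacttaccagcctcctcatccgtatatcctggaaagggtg
SEMA5B, chr3:122978283-122978383: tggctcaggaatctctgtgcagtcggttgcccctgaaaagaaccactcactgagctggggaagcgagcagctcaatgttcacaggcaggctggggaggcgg
The SEMA4B window holds 1 core, 7 bp from the summit. The SEMA5B window holds none, and the nearest core of that region was 81 bp away. Both genes encode membrane-bound semaphorins.

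The SEMA4B region (chr15:90165312-90166565) lies in an intron, 5329 bp from the nearest annotated start site of the gene. It is at -35397 bp from the canonical start site (negative is upstream), so it is intronic only in transcripts that start farther upstream. At its summit were 233, 614 and 336 fragments in KIN replicates 1 to 3, 235, 1156 and 168 with HIF-2α, 383, 1344 and 253 with HIF-2α/1α, 164, 613 and 185 with HIF-1α and 324, 541 and 238 with HIF-1α/2α. Replicate 2 was highest in all 5 tagged lines and the lines overlapped. Over the genome-wide mean of each library this was 1387 ± 811 times in KIN, 1180 ± 846 with HIF-2α, 1331 ± 810 with HIF-2α/1α, 874 ± 635 with HIF-1α and 1160 ± 645 with HIF-1α/2α (SD, n = 3). It ranked 9 to 81 in the 15 lists and was not called in WT. A second SEMA4B region, 2301 bp upstream of the gene and at -43027 bp from its canonical start, had 19 to 149 fragments (median 46) and ranked 838.5 to 6055.

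The SEMA5B region (chr3:122977243-122978836), 2199 bp from the nearest start site, had 151, 321 and 242 fragments in KIN, 202, 949 and 133 with HIF-2α, 315, 1261 and 253 with HIF-2α/1α, 159, 464 and 181 with HIF-1α and 264, 458 and 263 with HIF-1α/2α. Again replicate 2 was highest in each line, and the lines overlapped. The region ranked 7 to 109 and lay 49430 bp downstream of the canonical start.

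Other semaphorin sites were weaker by rank. SEMA4D, the class 4 ligand of PLXNB1, had 2 intronic regions of this pattern, one with 18 to 238 fragments over the 15 tagged libraries (median 34) and one with 17 to 143 (median 34). The SEMA6A intron had 19 to 264 (median 40), and a region 46836 bp past the end of SEMA6D had 7 to 95 (median 25). Those counted for SEMA4A and SEMA4G lay in the bodies of other genes. The SEMA4A region was 177 bp from a start site of LMNA and 40845 bp from SEMA4A, with 43 to 459 fragments. The SEMA4G region was 661 bp from a start site of SFXN3 and 47204 bp from SEMA4G, with 16 to 411 fragments.

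Among the ligands of EPH receptors, 3 of the 4 ephrin genes with such a region form a cluster on chromosome 1, EFNA4, EFNA3 and EFNA1, and share regions. The EFNA3 site (chr1:155084152-155086523) was intronic, also inside the readthrough locus, and had 28 to 183 fragments (median 81). The EFNA1 site (chr1:155134947-155136583) lay 429 bp past the 3′ end of EFNA1 and 16 bp from a start site of SLC50A1, a sugar transporter, with 19 to 325 fragments (median 79). The EFNA4 site was inside DCST1 and ADAM15, 484 bp from a start site of the latter, and had 10 to 109 fragments (median 34). EFNA5 lies on chromosome 5, and its site (chr5:107365025-107366624) was 10922 bp past the gene's end and 304655 bp from its start, with 49 to 650 fragments (median 98). The HRE cores of the EFNA1 and EFNA5 sites are printed because each lay within 13 bp of the summit. The first window is short because it overlaps untranslated exon.
EFNA1, chr1:155135314-155135342: gtggattggcCACGTcatgtaaagttgac
EFNA5, chr5:107365922-107366022: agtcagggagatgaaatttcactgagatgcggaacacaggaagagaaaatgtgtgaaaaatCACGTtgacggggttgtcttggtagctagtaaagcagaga
Both carry the ACGTG core, 2 bp and 13 bp from the summit.

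EPHA2, the EPHA receptor kinase that binds EFNA1, was the sole receptor with such a region. It lay 35037 bp past the end of the gene, nearer to FAM131C, with 29 to 395 fragments (median 91), and its window held no HRE core. EPHA2 also had regions called in WT. In all, 5 of the 248 member regions were called in at least 2 WT libraries, beside 498 of all 25783 regions. The 5 were 2 in introns of EPHA2 and 1 each at EPHB2, EFNA5 and EFNA2. The EFNA2 region lay 629 bp from a start site of CIRBP, and all 15 tagged and 2 of the 3 WT lists held it. Calls at these 5 places were thus not restricted to cells with a tag.

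**Figure D4:**
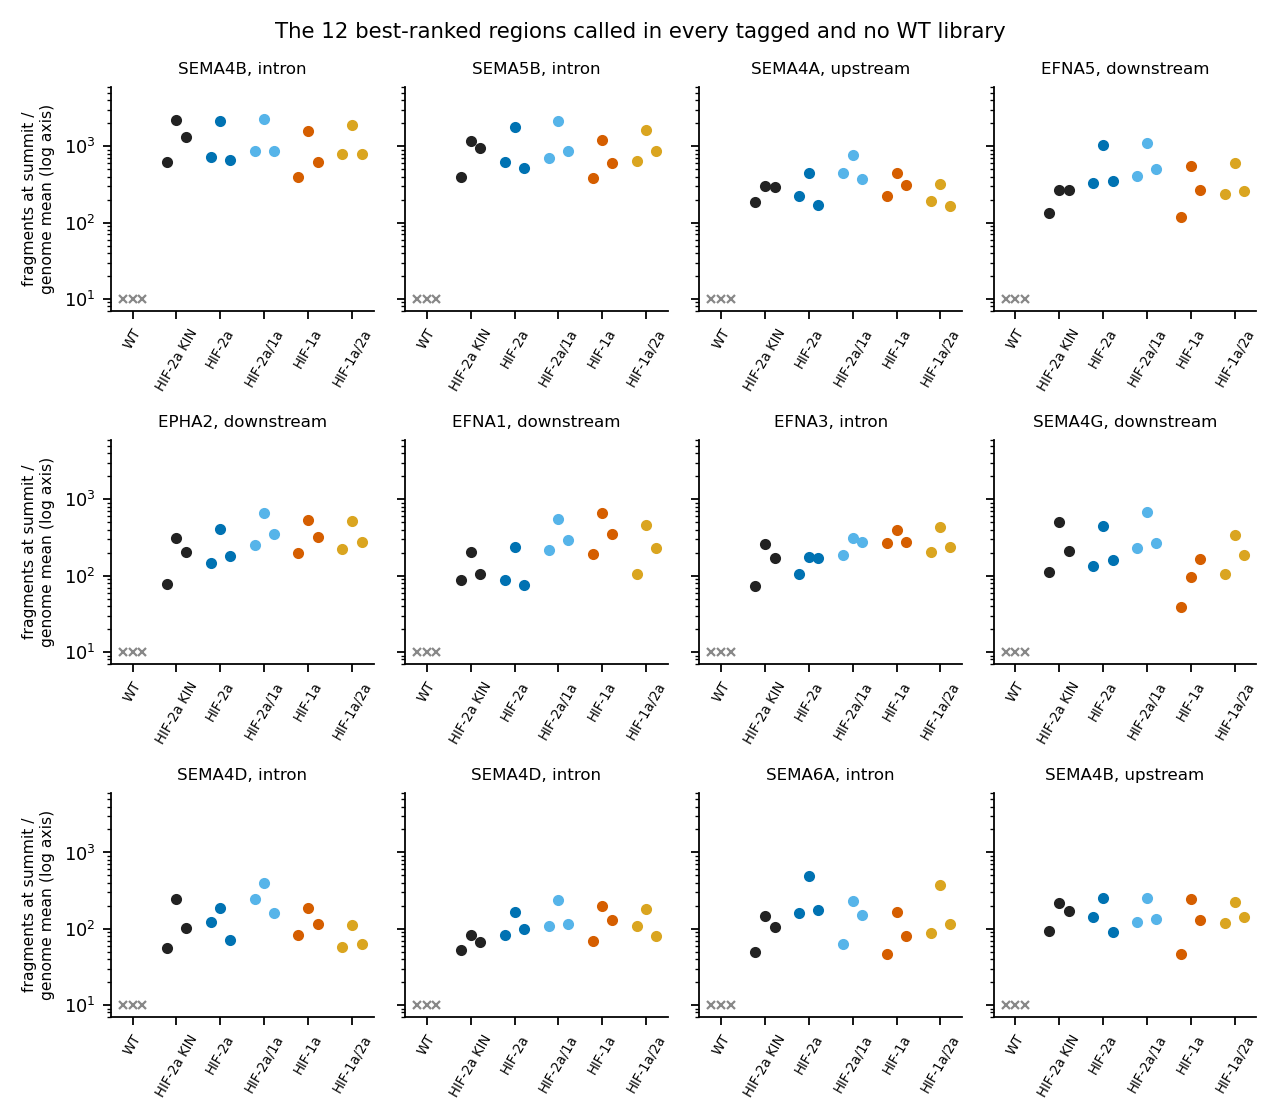
Fragments at the summit over the genome-wide mean of the library (y axis, log scale) for the 12 best-ranked regions with a call in every tagged and no WT library, by line (x axis, replicates 1 to 3 in order, 1 point per library). Crosses at the bottom mark libraries without a call and have no measured value. The WT crosses follow from how the regions were chosen, and the SEMA4B and SEMA5B introns reach above 300 in every tagged library.

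The exogenous lines form a cross of DBD and IDR, which asks whether a site goes with the N-terminal or the C-terminal part of the protein. Each protein was expressed in 1 stable line, and the libraries of a line are repeats of that line. A difference by DBD or IDR therefore cannot be told apart from other differences between lines, such as expression level, which was not compared here. Calls were compared 6 libraries against 6, the lines HIF-1α/2α and HIF-2α for the HIF-2α IDR against HIF-2α/1α and HIF-1α for the HIF-1α IDR, over regions called in fewer than 2 WT libraries. No region passed at members or genome-wide (Fisher's exact test, smallest adjusted p = 1). At an unadjusted p under 0.05 there were 7 of 243 member regions (2.88%), beside 1.41% of all regions. All 7 were called more with the HIF-1α IDR, as were 333 of the 357 regions genome-wide at this p (1.32% of all regions). By DBD, 2 of 243 (0.823%) had an unadjusted p under 0.05, beside 0.562% of all. Lists with the HIF-1α IDR held 12371 to 20808 peaks and those with the HIF-2α IDR 5906 to 20651. With equal lists 1 region was left by IDR and 1 by DBD.

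The most uneven calls by IDR were in NRP1, the co-receptor of class 3 semaphorins and of VEGF. An intronic NRP1 region (chr10:33273383-33273866) was called in 6 of 6 libraries with the HIF-1α IDR and 0 of 6 with the HIF-2α IDR (exact p = 0.00216, adjusted p = 1). It held 17, 38 and 12 fragments with HIF-1α and 18, 43 and 15 with HIF-2α/1α, and KIN replicate 2 also called it with 16. These are weak peaks, at ranks 5019 to 11446.5. SEMA3B, a secreted semaphorin, had 2 such regions, both inside the neighbour GNAI2. The one at the GNAI2 start had 45, 95 and 58 fragments with HIF-1α and 48, 138 and 32 with HIF-2α/1α, and was called in 1 of 6 libraries with the HIF-2α IDR, HIF-2α replicate 2, with 51. The other was called 5 times against 0. The remaining 4 were at SEMA4D (5 against 0), SEMA7A (6 against 1), SEMA4B at the start of GDPGP1 (6 against 1) and PLXNB2, a receptor of class 4 semaphorins (5 against 0), each with an exact p of 0.0152 and an adjusted p of 1. The SEMA3B regions had the same p. The SEMA4D region was also called in untagged WT replicate 2, with 12 fragments, and in KIN replicate 3, with 18. KIN replicate 3 called the SEMA7A region with 11 and KIN replicate 1 the SEMA4B region with 13.

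By DBD, a region in untranslated exon of EPHB6, an EPH receptor without kinase activity, was called in 6 of 6 libraries with the HIF-1α DBD and 1 of 6 with the HIF-2α DBD. It had 27, 55 and 16 fragments with HIF-1α, 13, 19 and 8 with HIF-1α/2α, and 12 in HIF-2α/1α replicate 2. An intron of SEMA6B went the other way, called in 5 of 6 libraries with the HIF-2α DBD, with 24 and 68 fragments in HIF-2α replicates 1 and 2 and 34, 78 and 18 with HIF-2α/1α, and in 0 of 6 with the HIF-1α DBD. Both had an exact p of 0.0152 and an adjusted p of 1, and KIN replicates 2 and 3 called the SEMA6B region as well.

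Strength was compared at the 2566 regions called in all 12 exogenous libraries and in fewer than 2 WT libraries, 25 of them at members, with limma on the log2 of the deposited fold enrichment centred on each library's median. By IDR no member region passed an adjusted p of 0.05, beside 2.42% of all regions, and at an unadjusted p under 0.05 there were 5 of 25, beside 441 of 2566 (17.2%). By DBD 1 of 25 passed, beside 3.20%, and between HIF-1α and HIF-2α 2 of 25 passed, beside 3.47%. No region at all passed the interaction of DBD and IDR, where 1 member region and 132 of all had an unadjusted p under 0.05. The median log2 difference by IDR (HIF-2α minus HIF-1α) was -0.01 at members and 0.05 over all regions, and by DBD 0.04 and 0.02. Simulated IDR shifts of 1 on the log2 scale were recovered in 42.0% of regions, so IDR differences of that size could often be missed. The other contrasts were not simulated.

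SEMA4G gave the call by DBD. The deposited fold at the site near SFXN3 was 18.5, 32.1 and 21.1 with HIF-2α and 14.1, 37.5 and 54.9 with HIF-2α/1α, but 7.27, 14.7 and 12.6 with HIF-1α and 10.7, 20.8 and 10.8 with HIF-1α/2α. The 2 DBD groups overlapped: the HIF-1α/2α replicate 2 value exceeded 2 of the 6 values with the HIF-2α DBD. The fitted difference was 1.12 ± 0.35 on the log2 scale (SE, limma adjusted p = 0.0490) and was positive in 3 of 3 replicate numbers. In fragments, HIF-1α had 16, 37 and 49. The call rested on single libraries, since it held without only 1 of the 12 exogenous libraries taken in turn, with log2 differences of 0.83 to 1.38.

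EFNA1 and SEMA6A differed between HIF-1α and HIF-2α, in opposite directions. At the EFNA1 site the fold was 16.0, 75.2 and 58.6 with HIF-1α and 10.3, 17.1 and 8.25 with HIF-2α, and the chimeras lay at 36.4, 54.4 and 30.8 (HIF-2α/1α) and 15.4, 31.2 and 24.7 (HIF-1α/2α). HIF-1α exceeded HIF-2α by 1.59 ± 0.48 (log2, SE, limma adjusted p = 0.0425), although the lowest HIF-1α value was under the highest HIF-2α value. SEMA6A encodes a ligand of PLXNA2 and PLXNA4. In its intron the fold was 11.5, 11.2 and 12.9 with HIF-1α and 13.7, 75.6 and 22.6 with HIF-2α, without overlap. HIF-1α was lower by a log2 difference of -1.55 ± 0.48 (SE, limma adjusted p = 0.0493). The 2 calls were kept without 6 of 12 libraries for EFNA1 and without 3 of 12 for SEMA6A, and SEMA6A had a limma adjusted p of 0.0547 after quantile normalization. In a fit over more regions, with uncalled values set to a floor, neither passed (limma adjusted p = 0.0534 for EFNA1 and 0.0611 for SEMA6A). SEMA6A KIN values, at 5.96, 9.24 and 8.60, were below all 3 of the HIF-2α line.

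The fold divides by a local IgG background, which varied between libraries. Measured as fragments at the summit over the library mean, which does not divide by local IgG, the same model called many more regions. Both values were solved from the deposited lists. By IDR 5 of 25 member regions passed (1 higher with the HIF-2α IDR and 4 lower), beside 42.1% of all regions. By DBD 9 passed, beside 28.0%, and between HIF-1α and HIF-2α 9, beside 38.0%. SEMA6A was then higher with the HIF-2α IDR by 1.10 ± 0.19 (log2, SE) and EFNA1 lower, at -0.85 ± 0.16, with limma adjusted p of 0.000291 and 0.000602. Both differences had this sign in 3 of 3 replicate numbers. The remaining IDR calls, all lower with the HIF-2α IDR, were SEMA4A, a SEMA4D intron and a region upstream of PLXNA3. SEMA4B and SEMA5B, the strongest sites, were lower with HIF-1α than with HIF-2α, at -0.65 ± 0.23 and -0.53 ± 0.19 (log2, SE, limma adjusted p = 0.0313 and 0.0362). In the deposited fold neither passed, and SEMA5B took the opposite sign, at 0.59 ± 0.48 (limma adjusted p = 0.587) and higher with HIF-1α in 3 of 3 replicate numbers. Among the 9 calls by DBD, EFNA5 (0.86 ± 0.16) and SEMA4G (1.07 ± 0.22) were higher with HIF-2α and a region downstream of NRP1 was lower (-0.76 ± 0.14).

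PLXNA2, a plexin receptor that binds SEMA6A, had 4 regions. The strongest (chr1:208007501-208008566) lay 14087 bp past the 3′ end of the gene and 236229 bp from its start, with the start of CD34 closer at 96753 bp. Its summit is shown because the study used this gene as its example. The window held no HRE core, and the nearest one was 98 bp from the summit.
PLXNA2, chr1:208008105-208008205: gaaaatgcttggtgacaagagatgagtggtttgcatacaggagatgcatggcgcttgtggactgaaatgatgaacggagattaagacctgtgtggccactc
There were 52, 269 and 46 fragments with HIF-2α and 56, 115 and 83 with HIF-1α/2α, against 26, 78 and 28 with HIF-2α/1α and 23 and 28 in HIF-1α replicates 1 and 3. Within each replicate number both HIF-2α IDR lines had more fragments than the HIF-1α IDR libraries with a call. In the deposited fold they did not all: HIF-2α replicate 3 had 7.85 and HIF-1α replicate 3 had 13.8. HIF-1α replicate 2, KIN replicates 1 and 2 and WT replicates 1 and 2 had no call, KIN replicate 3 had 14 fragments and WT replicate 3 had 8. By calls the comparison was 6 of 6 against 5 of 6 (Fisher's exact p = 1). Because 1 exogenous library lacked a call, strength could be fitted only with uncalled values set to the 1st percentile of their library. There the HIF-2α IDR was higher by 1.37 ± 0.36 (log2, SE, limma adjusted p = 0.0113), a value that partly rests on the floor and on a region chosen in these libraries. In that fit 4 of 115 member regions passed by IDR, 7 by DBD and 5 between HIF-1α and HIF-2α, beside 3.94%, 4.61% and 3.67% of all 11268 regions. Regions entered the fit if all libraries of at least 1 exogenous line called them. A region could thus enter through the line where it was high and be set against floor values elsewhere. These calls are therefore descriptive and lend no support to a difference. The other 3 IDR calls were lower with the HIF-2α IDR: the regions of SEMA7A (-1.33 ± 0.36) and of SEMA3B at the GNAI2 start (-1.26 ± 0.36), which did not pass by calls, and one downstream of EPHA6 (-1.19 ± 0.36). The 5 between HIF-1α and HIF-2α, all higher with HIF-1α, were 2 regions at SEMA3B and 1 each at EPHA6, EPHB6 and PLXNA3. The other 3 PLXNA2 regions were called in 2 to 4 tagged libraries.

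**Figure D5:**
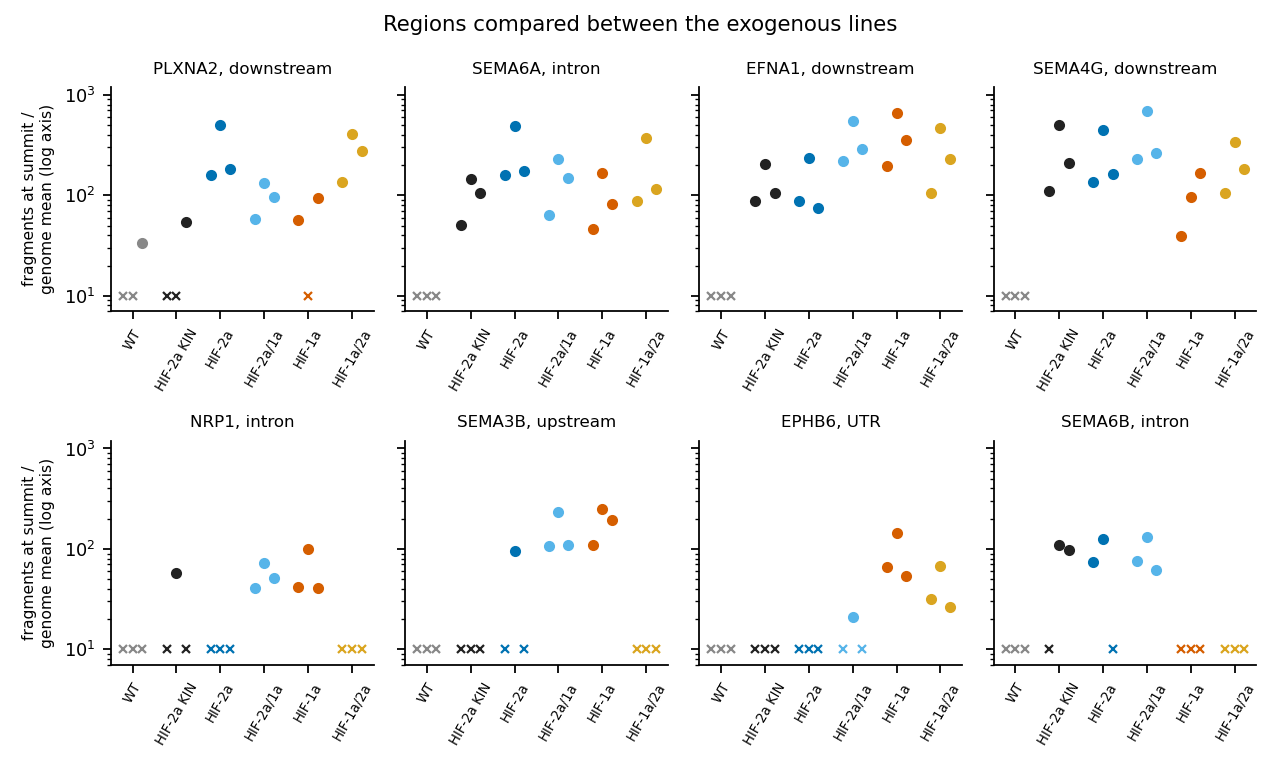
Fragments at the summit over the genome-wide mean of the library (y axis, log scale) at 8 regions named in the comparisons of DBD and IDR, by line (x axis, replicates 1 to 3 in order). Crosses mark libraries without a call. At PLXNA2 the HIF-2α and HIF-1α/2α points stand above those of HIF-2α/1α and HIF-1α within each replicate number, while the NRP1 intron has points in all 6 HIF-1α IDR libraries and in none of the 6 with the HIF-2α IDR.

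Genes that work with these proteins were counted in the same way. Of 33 transducers of semaphorin and ephrin signals, 7 (21.2%) had a region called in all 15 tagged and no WT library, close to the 22.6% of members and beside 10.8% of all genes. The best ranked were MET, the receptor kinase that couples to class B plexins, with a median rank of 403, and CD72, a receptor of SEMA4D, with 549 at a summit 335 bp from the start of CCDC107. Of 23 other axon guidance ligands and receptors, the SLIT, ROBO, netrin, DCC, UNC5 and RGM genes, 1 (4.35%) did: SLIT3, with a median rank of 732 at 208961 bp from its nearest start site. A site in the tagged libraries was found on average for 76.4% of the transducers and 43.8% of the other guidance genes, beside 56.4% of all protein-coding genes, and in WT for 22.2% and 17.4%, beside 17.6%.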

How the data were processed

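The authors aligned Cut&Run reads to hg38 with Bowtie2 2.3.4.1, called peaks with MACS2 (version not given in the sources used here) at a q-value of 0.01 for each anti-V5 library against the IgG library of its line and replicate, and removed blacklisted regions with bedtools 2.28.0. The deposited lists give, per peak, a fold ratio over local background, −log10 p and q values and the summit offset. IgG libraries entered only through these calls. Replicates are biological per the labels.

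Here, peaks on the autosomes and both sex chromosomes were placed on GENCODE 44. Peaks overlapping by 1 bp were merged. Members and lists were chosen with earlier results of these data known. Named regions were the 12 best-ranked with a call in 15 tagged and 0 WT libraries, those passing a limma contrast (up to 10 each), up to 10 with an unadjusted exact p under 0.05, and those at PLXNA2. The other 2 regions with the same call pattern (EFNA4, SEMA6D) and the members called by summit fragments were added after their values were seen. Summit fragments were solved from the deposited fold ratio and −log10 p. The genome-wide mean of a library was not measured directly but taken as the lowest background shared by many of its peaks. For 99.9% to 100% of peaks with a −log10 p under 100, a whole number gave back the deposited −log10 p within 0.01. Stronger peaks were outside this check. In HIF-2α/1α replicate 2 the fragments are scaled by 0.949, and the check used whole numbers times that factor. Intervals and floors are not given, since totals are unknown. Calls were tested with Fisher's exact test (scipy 1.17.1) and strength with limma 3.58.1 in R 4.3.3, both with Benjamini-Hochberg adjustment, after tests on simulated data. Alternatives were a −log10 q of at least 5, equal lists, 10 kb and 100 kb, summits within 250 bp, other normalizations, a replicate block and leaving libraries out.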

Additional observations from a re-analysis of the deposited data

How the results depend on the processing

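The mean share of members with a site in tagged libraries, 70.1%, kept within 1 SD at a −log10 q of at least 5 (64.2%), within 100 kb (76.2%), without WT regions and without any 1 library (69.0% to 72.5%), but was 41.8% with equal-length lists and 51.4% within 10 kb. The WT share, 23.3%, ran from 7.55% to 33.0% without 1 WT library. The 14 regions of the tagged against WT comparison became 8 within 10 kb, and 0, at members and genome-wide, with the replicate number as a block or with all replicate 2 libraries left out, an alternative chosen after seeing the data. Leaving out 1 library gave 0 to 18, with 0 without any 1 of the 3 WT libraries. In these settings the smallest exact p was 0.00463, 0.0152 and 0.00735, with a smallest adjusted p of 0.0994, 0.165 and 0.118 to 0.156. The smallest exact p is set by the number of libraries. The adjusted p also depends on how many regions share the pattern. Each 0 therefore does not tell whether the 14 regions are stable. The 7 IDR calls at an unadjusted p became 1 with equal-length lists and 4 within 10 kb, and 7 to 12 without 1 library. The 2 DBD calls became 1 at a −log10 q of at least 5 and 1 with equal-length lists, and 2 to 4 without 1 library. None passed adjustment in the full set. In strength, the 0 IDR calls became 5 with summit fragments, 4 with uncalled values at a floor and 1 with the replicate block, and 0 to 1 without 1 library. The 1 DBD call became 9, 7 and, within 10 kb, 0, and 0 to 1 without 1 library. The 2 calls between HIF-1α and HIF-2α became 9 with summit fragments, 1 after quantile normalization (EFNA1) and 5 with the floor, at other regions, where EFNA1 and SEMA6A did not pass, and 0 to 2 without 1 library. The interaction had 0 member calls in every setting run. EFNA1 stayed at 1.31 to 2.15 and SEMA6A at -2.00 to -1.24 (log2) without 1 library, and neither changed direction. The causes were not tested, beyond those that follow from fewer libraries or a shorter reach. Deviations of libraries sharing a replicate number correlated at 0.030 to 0.200 (median 0.075), and not every pair was over 0.1. Those of different numbers correlated at -0.117 to 0.065 (median -0.054). Libraries of the same number thus shared a small part of their deviations, which the main tests do not model. With the block, strength calls genome-wide went from 62 to 109 by IDR and from 82 to 118 by DBD. Between HIF-1α and HIF-2α they went from 89 to 109. List length limits every count of genes with a site, and 3 WT libraries limit the comparison with untagged cells.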
